A study of Mus musculus with 2 samples.

Results

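The Zfp42-low cells are the 359 cells of the MERVL-GFP negative library with the smallest share of Zfp42 transcripts. They come from a single-cell RNA-seq experiment on mouse embryonic stem cells (mESC) that carry a MERVL::GFP reporter and the nuclear marker H2B-mIFP, as the series describes the line. The reporter is GFP under the promoter of the endogenous retrovirus MERVL and marks cells of the 2C-like state, which resembles the early cleavage embryo. The series holds 2 libraries, 1 of GFP-positive and 1 of GFP-negative cells, with no drug, genotype or age given for either, so that each group holds 1 sample. Every result below compares cells inside a library, and library, batch and group cannot be told apart between the 2. Of 3832 negative-library cells, 8 were left out for fewer than 10000 UMIs (unique molecular identifiers, taken as molecules counted once each) and 225 because at least 0.03% of their UMIs came from Gata6, Sox17, Pdgfra and Dab2, genes of the primitive endoderm. The remaining 3599 cells were ranked by Zfp42 UMIs over all UMIs. The lowest 10% are the 359 Zfp42-low cells and the highest 50% are the 1800 cells called Zfp42-high here, out of 8435 cells in the series. The members were thus selected on measured Zfp42, so Zfp42 itself is only described. With 1 sample there is no test. Intervals on CPM values, ratios and shares of cells are exact 95% intervals of the counts, and cells are not replicates, so they cover counting error only. Intervals on list medians are 95% order-statistic intervals over the genes of the list and do not cover counting error.

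Zfp42 (Rex1) encodes a zinc finger protein of the naive state, the ground state of pluripotency kept in mouse stem cell cultures by LIF and by block of differentiation signals. Naive cells express Klf4, Esrrb, Tfcp2l1, Tbx3 and Nanog on top of the core factors Pou5f1 (Oct4) and Sox2. On the way to lineage commitment they pass through a formative and then a primed state, in which these naive factors go down while Pou5f1 is kept and Otx2, Pou3f1 (Oct6), Fgf5 and the de novo DNA methyltransferases come up. Loss of a Zfp42 reporter is widely used to mark the exit from the naive state, and serum cultures are known to hold a mixture of Zfp42-high and Zfp42-low cells.

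The Zfp42 share of the 3599 cells had one broad peak and a low shoulder rather than 2 separate peaks. Zfp42-low cells had a median of 14 Zfp42 UMIs (0 to 48) and a median share of 427 UMIs per 1000000 (CPM). The Zfp42-high cells had a median of 66 UMIs (15 to 206) and 1588 CPM, running from 1267 to 4215 CPM. No Zfp42 UMI was seen in 7 of the 359 members and in 0 of the 1800 Zfp42-high cells. The last cells taken in had 633, 635 and 636 CPM, from 18, 22 and 25 UMIs, and the first left out had 636, 636 and 637 CPM, from 18, 17 and 40 UMIs, so the border runs through a continuous range. The 2 groups were close in depth, with medians of 36728 and 39932.5 UMIs and of 5689 and 5903 genes per cell, and in mitochondrial share, with 1.59% and 1.64%. When the UMIs of each cell were divided at random into 2 parts, cells ranked lowest on one part had 473 CPM of Zfp42 in the other, against 1625 CPM in the cells ranked highest.

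**Figure D1:**
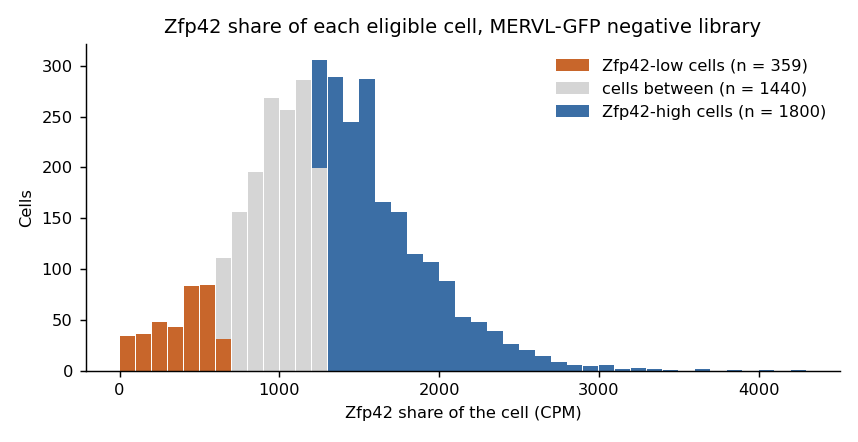
Number of cells (vertical axis) by Zfp42 share in CPM (horizontal axis, bars 100 wide) for the 3599 eligible cells of the MERVL-GFP negative library, coloured as Zfp42-low cells (359), cells between (1440) and Zfp42-high cells (1800). The low cells form a shoulder below 636 CPM that runs on into the rest.

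UMIs were summed over the cells of each group and written as CPM, and a gene was counted as higher or lower when the ratio of CPM + 1 was at least 1.5 with at least 10 CPM in either group and 50 UMIs in total. Of 7344 genes large enough, 130 (1.77%) were higher in Zfp42-low cells and 67 (0.912%) were lower, while the median of all 7344 lay at 0.002 on the log2 scale. Of the higher genes 61, and of the lower genes 13, reached 10 CPM only in the group where they are higher, so the filter let them in because they differ. Higher genes made up 66.0% of the calls with CPM and 52.5% with trimmed-mean (TMM) scaling, where 107 were higher and 97 lower. The label was checked against its own markers Otx2, Pou3f1 and Fgf5. Pou3f1 was higher, Otx2 differed by less than the ratio of 1.5, and Fgf5 had 6 UMIs in all 359 cells together, so the cells are called Zfp42-low here and not primed. Most markers of other cell types were low: 8 of the 9 2C-like markers had 0 UMIs in the members, and the 4 mesendoderm markers summed to 1.98 CPM against 3.0 CPM in the Zfp42-high cells. The 3 neuroectoderm markers summed to 6.78 against 6.14 CPM, the 4 fibroblast markers to 2.74 against 3.39 CPM and the 4 trophoblast markers to 5.10 against 4.82 CPM. The 6 primitive endoderm markers summed to 14.4 against 8.93 CPM, but 4 of them are the genes by which cells were left out, so their level was limited by the selection. Of the wider primitive endoderm list, 15 genes had at least 50 UMIs, with a median log2 ratio of 0.52 (0.16 to 0.73). That median is the value of Dab2, and the list also holds Gata6 (0.84), both genes by which cells were left out. The selection thus limited this list too. Among its 6 genes large enough to be counted the laminin gene Lamb1 (0.77) and the endocytic receptor gene Lrp2 (0.59, just past the ratio) were higher and 0 were lower. That stands against the 1.77% and 0.912% of all tested genes, and the part of endoderm-like transcripts in the other results was not tested. GFP had 4 UMIs in the members, 0.305 CPM, and 38 in the Zfp42-high cells, 0.506 CPM, a ratio of 0.602 (0.156 to 1.67).

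Nanog, Klf4 and 9 other genes of the naive list were lower in Zfp42-low cells. All 24 genes of the naive list had at least 50 UMIs, and their median log2 ratio was -0.60 (order-statistic interval -0.80 to -0.38). Of the 23 that were large enough to be counted, 11 were lower and 1 was higher, against 0.912% and 1.77% of all tested genes. Nanog (ENSMUSG00000012396), the homeobox factor that stabilises self-renewal, had 103 CPM (97.6 to 109) in Zfp42-low cells and 240 CPM (236 to 243) in the Zfp42-high cells, a log2 ratio of -1.21. Klf4 (ENSMUSG00000003032), a Krüppel-like factor downstream of LIF, had 220 CPM (212 to 228) against 428 CPM (423 to 433), or -0.96 as a log2 ratio. Both genes still had at least 1 UMI in most members.

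Zfp57 (-1.07), which protects methylation at imprinted loci, Tbx3 (-0.93), a T-box factor of LIF signalling, and Jam2 (-0.93), a junctional adhesion molecule, followed. The dioxygenase Tet2 (-0.85), which oxidises methylated cytosine, the factor Tfcp2l1 (-0.80), the orphan receptors Nr0b1 (-0.79), Esrrb (-0.76) and Nr5a2 (-0.64) and the growth factor Fgf4 (-0.71) were the other 6 of the 11. Klf5 (-0.55), Klf2 (-0.38), Tdh (-0.53), Tcl1 (-0.53), Mylpf (-0.56), Fbxo15 (-0.42), Spp1 (-0.29) and Dppa5a (-0.25) were below 0 but inside the ratio of 1.5. With TMM scaling Klf5, Mylpf, Tdh and Tcl1 were past it, and 15 naive genes were lower. Gbx2 (0.24), Pecam1 (0.05) and Zscan10 (0.02) were above 0, the last 2 of them not with TMM scaling. Prdm14 had 35 UMIs in the members, 2.67 CPM against 5.01 CPM, too few to be counted. Dppa3 (Stella), a maternal factor also expressed in germ cells, was the exception, with 15.9 CPM against 7.34 CPM, and 60.3% of its UMIs lay in 10 of the 359 cells.

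The core factors differed little. Pou5f1 (ENSMUSG00000024406) had 370 CPM (360 to 381) in Zfp42-low cells and 394 CPM (390 to 399) in the Zfp42-high cells, a log2 ratio of -0.09. Sox2 (ENSMUSG00000074637) had 442 CPM (431 to 454) against 604 CPM (599 to 610), or -0.45 as a log2 ratio, which is a larger difference than that of Pou5f1 and still inside the ratio of 1.5. Over the 11 core genes the median was -0.09 (-0.45 to 0.12), with 1 lower and 0 higher, against 0.912% and 1.77% of all tested genes. That 1 gene was Foxd3 (-1.12), a forkhead repressor that restrains differentiation, at 12.4 CPM against 28.1 CPM. Utf1 (-0.09), Sall4 (-0.13), Dppa2 (0.10), Dppa4 (0.04), Tdgf1 (0.06), Gdf3 (0.12), Trim28 (-0.30) and Lin28a (0.47) were inside the ratio, and the sign of Dppa4 changed with TMM scaling.

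Part of the primed list was higher, while Otx2 and Fgf5, its best known members, were not counted as higher. The list has 22 genes, of which 19 had at least 50 UMIs, with a median of 0.44 (0.21 to 1.31). Among the 13 large enough, 7 were higher and 0 lower, against 1.77% and 0.912% of all tested genes. Pou3f1, Lef1, Pim2 and Car4, 4 of the 7, reached 10 CPM in Zfp42-low cells alone and so were counted only because they differ. Pou3f1 (ENSMUSG00000090125), a POU-domain factor of the epiblast and later of neural cells, had 24.4 CPM (21.8 to 27.2) against 6.49 CPM (5.93 to 7.09), or 1.76 as a log2 ratio. Lef1 (ENSMUSG00000027985), a nuclear partner of beta-catenin, had 31.0 CPM (28.1 to 34.2) against 7.10 CPM (6.51 to 7.73), or 1.98 as a log2 ratio. Dnmt3b (ENSMUSG00000027478), a de novo DNA methyltransferase, had 68.2 CPM (63.8 to 72.9) against 26.9 CPM (25.8 to 28.1), or 1.31 as a log2 ratio. All 3 lay past a ratio of 2.

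The serine/threonine kinase Pim2 (2.10), the carbonic anhydrase Car4 (2.18), the SoxC factor Sox11 (1.12) and the second methyltransferase Dnmt3a (0.62) completed the 7. Dnmt3a was inside the ratio with TMM scaling (0.56) and with the mean of each cell's CPM (0.57), which left 6. Otx2 (ENSMUSG00000021848), the homeobox factor that drives exit from the naive state, had 23.5 CPM (21.0 to 26.3) against 19.2 CPM (18.2 to 20.2), or 0.28 as a log2 ratio. Zic2 (0.25), Zic5 (0.30), Sox4 (0.21), Tcf15 (0.05, below 0 with TMM scaling) and Etv4 (-0.13) were also inside the ratio. Fgf5, the classic ligand of the primed epiblast, had too few UMIs to be counted, 6 in each group. With the smaller total of the members these are 0.457 CPM against 0.080 CPM, a ratio of 5.72 (1.53 to 21.4), and its level in the lowest 1% of cells by Zfp42 was 3.36 CPM. Wnt8a had 3 UMIs and Nkx6-3 had 1 UMI in the members. Sox3, Fgf8, Fgf15, Cdh2, Sall2 and Grhl2 stayed under 10 CPM, Grhl2 with 8.07 CPM against 2.68 CPM.

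**Figure D2:**
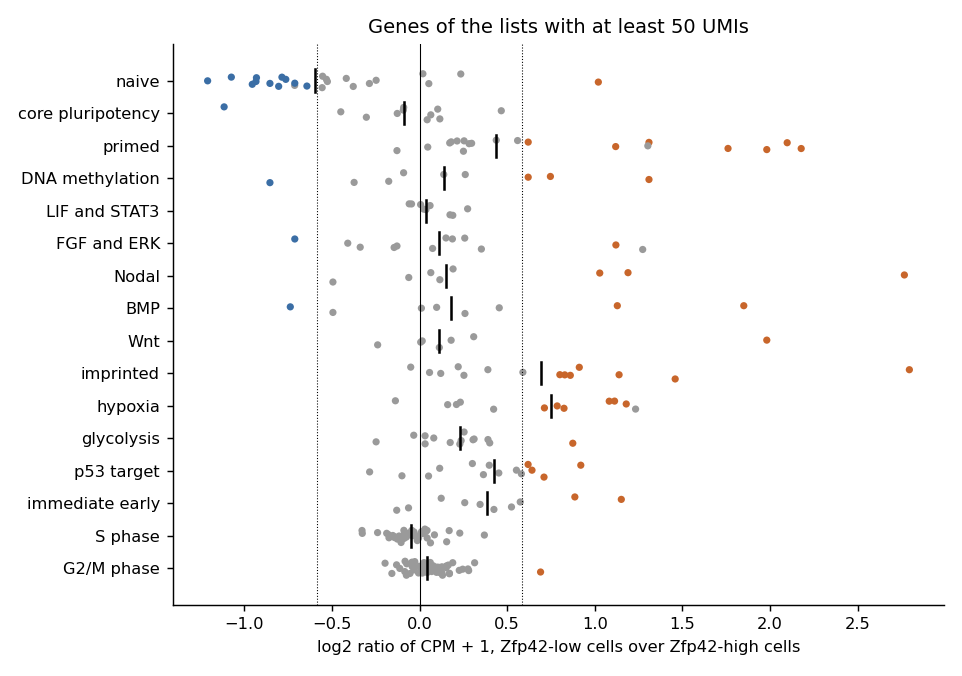
Log2 ratio of CPM + 1, Zfp42-low cells over Zfp42-high cells (horizontal axis), for every gene with at least 50 UMIs in 16 gene lists (rows), 1 point a gene, orange where counted as higher, blue where counted as lower and grey otherwise. Black bars are list medians and dotted lines mark the ratio of 1.5: the naive median lies at -0.60, the core median at -0.09 and the primed median at 0.44.

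The same order showed in single cells. Each cell was thinned to 10000 UMIs to remove depth, and UMIs of 9 naive factors (Klf2, Klf4, Klf5, Esrrb, Tfcp2l1, Tbx3, Nanog, Prdm14 and Nr0b1) were added up. Zfp42-low cells had a median of 12 such UMIs (quartiles 7 and 17) and Zfp42-high cells 21 (16 and 27). The groups overlapped: 179 of 359 members (49.9%, 44.6 to 55.2) were below 12 UMIs, the 10th percentile of the Zfp42-high cells, and the others were inside the range of those cells. For the primed list without Tcf15, which alone gives many of that list's UMIs, 86 of 359 members (24%, 19.6 to 28.7) were above 5 UMIs, the 90th percentile of the Zfp42-high cells, as were 5.72% of those cells. Both held for 67 members (18.7%), low naive factors alone for 112 (31.2%), a high primed share alone for 19 (5.29%) and neither for 161 (44.8%).

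Shares of cells with at least 1 UMI, at 10000 UMIs a cell, went the same way between members and Zfp42-high cells. Nanog was found in 47.9% of Zfp42-low cells (42.6 to 53.2), in 83.2% of the Zfp42-high cells and in 16.4% of the 225 cells left out for endoderm genes, whose median depth before thinning was 40328 UMIs. Pou3f1 was found in 14.5% of members (11 to 18.6), 5.78% of the Zfp42-high cells and 7.56% of the endoderm-gene cells. Lef1 was found in 19.8% of members (15.8 to 24.3), 5.78% of the Zfp42-high cells and 1.33% of the endoderm-gene cells, so the share in members lay above both. Dnmt3b and Car4 were found most often in the endoderm-gene cells, with 38.2% and 9.19% of members, 21.1% and 2.78% of the Zfp42-high cells and 89.3% and 63.6% of the endoderm-gene cells. Without thinning, the shares of members and Zfp42-high cells were 77.7% and 99.1% for Nanog, 30.9% and 20.5% for Pou3f1 and 37.0% and 17.3% for Lef1. Otx2 was found in 17.3% and 16% of thinned cells. Fgf5 had at least 1 UMI in 4 of 359 members (1.11%) before thinning and in 0 after it.

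Most differences were larger toward the lowest Zfp42, with exceptions. In the 35 cells that make up the lowest 1% (median Zfp42 73.8 CPM), Nanog stood at 30.2 CPM, against 95.4 CPM in the next 144 cells, 122 CPM in the next 180 cells and 155 CPM in the second decile. Klf4 followed with 47.0, 170, 291 and 298 CPM over the same 4 classes. Pou3f1 ran the opposite way, with 94.9, 23.1, 12.7 and 9.55 CPM. Dnmt3b went from 160 to 82.0, 40.6 and 34.1 CPM, and Lef1 from 91.5 to 38.4, 14.2 and 15.3 CPM. Pou5f1 stayed between 361 and 381 CPM in all 4 classes. Otx2 reached 29.4 CPM in the lowest 1%, against 21.3 CPM in the second decile. Foxd3, with 28.5 CPM in the lowest 1% and 28.1 CPM in the Zfp42-high cells, did not follow this order. Neither did the hypoxia gene Bnip3, with 81.4 CPM in the lowest 1% and 116 CPM in the next class, nor Dppa3, Ndrg1, Id1 and Peg3, with 12.6, 10.9, 225 and 52.1 CPM against 19, 14.9, 231 and 57.2 CPM. Of the 130 higher genes 92, and of the 67 lower genes 64, were most extreme in the lowest 1% among the 3 classes of members. In the second decile, which was not used to choose them, 119 and 67 lay on the same side of the Zfp42-high cells, but only 17 and 8 were past the ratio of 1.5. Without the lowest 1% of cells 107 genes were higher and 51 lower, 104 and 50 of them among the same genes.

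**Figure D3:**
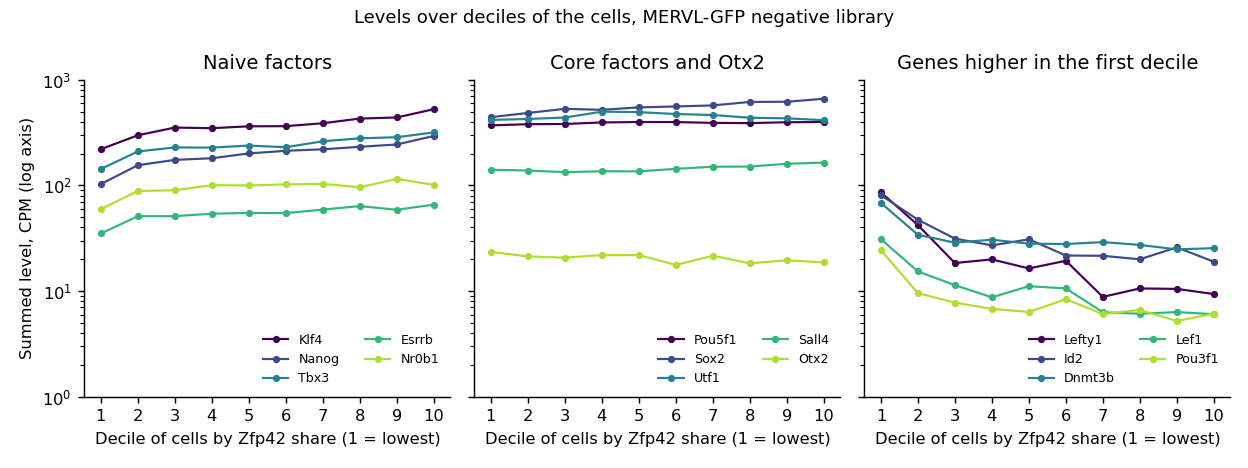
Summed level in CPM (vertical axis, log scale) of 15 genes over deciles of the 3599 cells ordered by Zfp42 share (horizontal axis, 1 is the Zfp42-low group), in 3 panels of naive factors, core factors with Otx2, and genes higher in the first decile. Nanog goes from 103 CPM in the first decile to 294 CPM in the last, Pou5f1 from 370 to 398 CPM, and Pou3f1 from 24.4 to 6.12 CPM.

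Targets of Nodal and BMP signalling, and regulators of DNA methylation, were among the higher genes. Lefty1 (ENSMUSG00000038793), a secreted inhibitor that Nodal signalling induces, had 86.0 CPM (81.0 to 91.2) against 11.8 CPM (11 to 12.6), or 2.77 as a log2 ratio, the second largest of the 130. It was found in 33.7% of members and 18.7% of the Zfp42-high cells, and 43.0% of its UMIs lay in 10 cells. Lefty2 (1.19), its close relative, and Skil (1.03), a feedback repressor of SMAD proteins, were higher as well. Lefty2 reached 10 CPM in Zfp42-low cells alone (13.9 against 5.52 CPM), so it was counted because it differs. The ligand Nodal (0.19), the co-receptor Tdgf1 (0.06), the receptor Acvr2b (-0.06), the ligand Gdf3 (0.12) and the inhibitor Smad7 (-0.50) were inside the ratio, so 3 of the 8 measured Nodal genes were higher and 0 lower, against 1.77% and 0.912% of all tested genes, with a median of 0.15.

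Id2 (ENSMUSG00000020644) had 80.7 CPM (75.9 to 85.7) against 21.7 CPM (20.6 to 22.7), and Id1 had 202 CPM against 91.7 CPM, log2 ratios of 1.85 and 1.13. Both encode inhibitors of bHLH factors and are BMP targets. The BMP ligand Bmp4 was lower (-0.74), Id3 was at 0.45, and the median of the 8 measured BMP genes was 0.18, with 2 higher and 1 lower of the 6 large enough, against 1.77% and 0.912% of all tested genes. Of the 8 DNA methylation genes large enough Dnmt3b (1.31), its cofactor Dnmt3l (0.75) and Dnmt3a (0.62) were higher and Tet2 (-0.85) lower, against the same 1.77% and 0.912%, and the list median was 0.14. Dnmt1 (-0.09), Uhrf1 (-0.18) and Tet1 (-0.37) were inside the ratio. Of the 11 FGF and ERK genes large enough the phosphatase Dusp4 was higher (1.12) and the ligand Fgf4 lower (-0.71), against 1.77% and 0.912% of all tested genes. Dusp4 reached 10 CPM in Zfp42-low cells alone (18.6 against 8.01 CPM). Etv5 (-0.41), Spry4 (-0.34), Dusp6 (0.35) and Egr1 (0.26) were inside the ratio. None of the 8 LIF and STAT3 genes large enough passed the ratio, against 1.77% higher and 0.912% lower of all tested genes. The list median was 0.04: Lifr (0.04), Il6st (0.01), Stat3 (0.06), Socs3 (0.19) and Pim1 (0.27). Of the 4 Wnt genes large enough Lef1 alone was higher and 0 were lower, against the same 1.77% and 0.912%, beside Tcf7 (0.31), Tcf7l1 (0.01) and Ccnd1 (-0.24).

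Among the other leading higher genes were Gadd45g (2.61), a stress and differentiation gene linked to DNA demethylation and growth arrest, Fgfbp1 (2.09), a carrier protein for FGFs with 64.5% of its UMIs in 10 cells, Prtg (1.73), an immunoglobulin-family receptor of early neural tissue, and Hoxb13 (1.52), a posterior Hox gene. Gadd45g had 29.3 CPM (26.5 to 32.4) against 3.97 CPM (3.53 to 4.45). The ubiquitin ligase gene Rlim (1.01), whose product is known to target the ZFP42 protein for degradation, had 101 CPM against 49.8 CPM and is named because of its value. The leading lower genes outside the naive and core lists were 6330410L21Rik (-1.65), the activin subunit Inhbb (-1.32), the bHLH repressor Msc (-1.21), H2-M5 (-1.19), Arl14epl (-1.15), Myo1f (-1.15), Gm13580 (-1.04), the RAS relative Mras (-1.0), the histone acetyltransferase Kat6b (-1.0), the actin nucleator Cobl (-0.99) and the sialyltransferase St8sia1 (-0.98). Inhbb had 7.77 CPM (6.33 to 9.43) against 20.9 CPM (19.9 to 22). Among members, cells rich in one of Pim2, Pou3f1, Lef1 and Dnmt3b were weakly to moderately richer in the others, with r from 0.24 to 0.45 over 359 cells of 1 library that share sparse counts, which is given as a description. For Car4 with these 4 genes r was 0.16 to 0.38, for Lefty1 0.04 to 0.14 and for Id2 -0.03 to 0.07.

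The hypoxia, imprinted and p53 target lists had medians above that of all tested genes. Over 12 hypoxia genes with at least 50 UMIs the median was 0.75 (0.21 to 1.11), and of the 10 large enough to be counted 6 were higher and 0 lower, against 1.77% and 0.912% of all tested genes: Ddit4 (1.18), an mTOR inhibitor, Ndrg1 (1.11), the mitophagy receptor Bnip3 (1.08), the collagen hydroxylase P4ha1 (0.82), the oxygen-sensing hydroxylase Egln3 (0.79) and Ankrd37 (0.71). Vegfa (-0.14), Slc2a1 (0.16), Pdk1 (0.23) and Higd1a (0.21) were inside the ratio. Bnip3 had 108 CPM in the first decile, 82.6 CPM in the second, 70.5 CPM in the fifth and 38.3 CPM in the last, so it varied over the whole Zfp42 range. Of the 14 glycolysis genes only the lactate carrier Slc16a3 (0.87) was higher and 0 were lower, against the same 1.77% and 0.912%. Pgk1 (0.39), Tpi1 (0.40), Gpi1 (0.31) and Ldha (0.25) were inside the ratio. Of the 12 p53 targets large enough 4 were higher and 0 lower (1.77% and 0.912% of all tested genes), Pmaip1 (0.92), Btg2 (0.71), Trp53inp1 (0.64) and Bbc3 (0.62), with Cdkn1a (0.58) just inside. Trp53inp1 and Bbc3 lay close to the ratio, inside which TMM scaling moved Dnmt3a (from 0.62 to 0.56). Jun (1.15) and Junb (0.89) were higher among the 8 immediate early genes large enough, and Ddit3 (1.31) was the only one of 10 integrated stress genes that passed. Of the genes counted as higher here, 2 of the 6 hypoxia genes, 1 of the 4 p53 targets, Jun and Ddit3 reached 10 CPM in Zfp42-low cells alone. The filter let these in because they differ. None of the 7 heat shock, 12 mitochondrially encoded, 85 ribosomal protein, 41 S phase and 9 germline genes large enough passed the ratio. G2e3 (0.69) was the only one of 52 G2/M genes. With 1.77% of all tested genes higher and 0.912% lower, lists of these sizes would hold few or no such genes, so these counts say little about them.

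Scored cell cycle phase differed slightly, with 60.4% of members in S phase (55.2 to 65.5) against 66.6% of the Zfp42-high cells (64.3 to 68.7), and 38.2% (33.1 to 43.4) against 33.1% in G2/M. Phase scores read droplet background RNA too, and its part was not tested. Among S phase cells alone, ranked again by Zfp42, 110 genes were higher and 62 lower, and the naive and primed medians were -0.56 and 0.47. Among G2/M phase cells, with 120 low cells, 244 genes were higher and 139 lower, and the medians were -0.72 and 0.49. When cells were ranked within deciles of depth, 101 genes were higher and 56 lower, with 101 and 51 among the same genes.

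A very few cells gave most of the signal of the keratin, H19 and Rhox genes. For each gene, the 10 members richest in it held 91.3% of the UMIs of H19 (log2 ratio 2.80), an imprinted noncoding RNA, 88.2% of Rhox6 (2.62) and 81.8% of Rhox9 (2.35), X-linked homeobox genes, 85.2% of Krt8 (1.73) and 62.9% of Krt18 (1.23), keratins of simple epithelia. The same share was 19.8% for Dnmt3b, 25.8% for Lef1, 30.8% for Id2 and 46.2% for Pou3f1, with a median of 24.1% over the 130 higher genes and 18.8% over the 67 lower genes. The 3 cells richest in keratins stood out, with 75, 52 and 45 UMIs of Krt8, 72, 15 and 20 of Krt18 and 68, 72 and 49 of H19. The first also held 158 of the members' 221 Rhox6 UMIs and 126 of their 187 Rhox9 UMIs, and the 3 cells had 15, 4 and 0 UMIs of Hand1, 14, 0 and 4 of Krt7, 19, 1 and 24 of Tfap2c and only 1, 3 and 4 of Pou5f1. Krt8, Krt18, Hand1, Krt7 and Tfap2c are known from trophoblast, and of the 4 trophoblast markers Gata3 had 4 UMIs, Cdx2 had 2, Tfap2a had 1 and Elf5 had 0 in the 3 cells together. They are called keratin-rich here and given no cell type. They had 29085, 40195 and 23851 UMIs, against a member median of 36728. No doublet caller was run, and whether they are doublets was not tested.

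Without these 3 cells Krt8 had 3.91 CPM and a log2 ratio of -0.14, and Krt18 0.32, H19 1.27, Rhox6 0.97 and Rhox9 0.80, all of them under 10 CPM. The trophoblast list median went from 0.85 to 0.22 and its higher genes from 3, of 4 tested, to 0. With all members 0 were lower, against 1.77% higher and 0.912% lower of all tested genes. These 3 genes had reached 10 CPM in Zfp42-low cells alone, so they were counted because they differ. The imprinted list kept a median of 0.55, from 0.69, and 5 of its 7 higher genes of 12 tested, with 0 lower. Of all tested genes 1.77% were higher and 0.912% lower. The 5 were the cell cycle inhibitor Cdkn1c (1.39, from 1.46 with all members), Peg3 (0.86, from 1.14), Meg3 (0.92, from 0.91), Snrpn and Rian. With all members Snrpn was at 0.86 and Rian at 0.80. The naive and primed medians were -0.59 and 0.44, and 116 genes were higher and 68 lower. All 116 were among the 130, and the other 14 included Fgfbp1 (1.76, at 9.05 CPM) and Bcor (0.78, at 9.90 CPM), which fell under 10 CPM. Lefty1 (2.78), Lef1 (1.99), Pou3f1 (1.76), Id2 (1.83) and Gadd45g (2.60) kept their values.

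**Figure D4:**
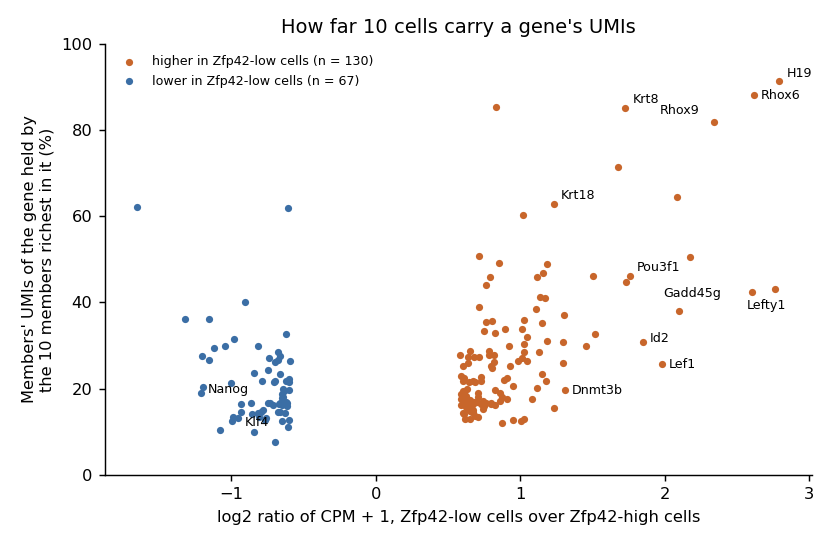
Share of a gene's UMIs in the Zfp42-low cells that came from the 10 cells richest in it (vertical axis, percent) against its log2 ratio (horizontal axis), for the 130 higher (orange) and 67 lower (blue) genes. H19, Rhox6, Rhox9 and Krt8 lie above 80%, Lefty1 at 43.0% and Dnmt3b at 19.8%.

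The promoters of 3 genes are shown because they hold the octamer ATTTGCAT, the letters that POU factors such as Pou5f1 and Pou3f1 are known to bind: Zfp42, which defines the cells, and Gadd45g and Pim2, both among the 15 leading higher genes. The sequences are the 250 bases before the RefSeq start site on GRCm38.p6, 5′ to 3′ on the gene's strand, with the octamer or its reverse complement ATGCAAAT in capitals.
Zfp42 promoter, chr8:43307010-43307259, minus strand: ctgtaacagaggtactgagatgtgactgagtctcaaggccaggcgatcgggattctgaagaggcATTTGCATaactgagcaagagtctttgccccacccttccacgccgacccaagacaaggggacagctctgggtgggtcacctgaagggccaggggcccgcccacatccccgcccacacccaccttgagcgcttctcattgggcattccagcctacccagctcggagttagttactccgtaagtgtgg
Gadd45g promoter, chr13:51846425-51846674, plus strand: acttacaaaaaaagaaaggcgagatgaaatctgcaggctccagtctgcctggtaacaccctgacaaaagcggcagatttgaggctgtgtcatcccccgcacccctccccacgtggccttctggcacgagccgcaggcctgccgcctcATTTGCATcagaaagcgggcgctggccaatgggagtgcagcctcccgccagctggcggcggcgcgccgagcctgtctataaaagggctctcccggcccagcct
Pim2 promoter, chrX:7878056-7878305, plus strand: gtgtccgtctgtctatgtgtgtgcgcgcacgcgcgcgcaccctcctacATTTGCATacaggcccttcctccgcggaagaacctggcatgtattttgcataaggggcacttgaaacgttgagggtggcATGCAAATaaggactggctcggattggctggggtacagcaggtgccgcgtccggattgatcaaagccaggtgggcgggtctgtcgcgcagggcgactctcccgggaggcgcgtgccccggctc
The first octamer base lies at -186 in Zfp42, -103 in Gadd45g and -202 in Pim2, counted from the start site. This was the 1 motif searched, on both strands, in windows from 250 bases before to 50 bases after the start. It was present in 7 of the 98 higher genes that had a promoter sequence (7.14%), namely Egln3, Gadd45g, H2ac1, Liph, Pim2, Sesn3 and Sfrp2, and in 0 of 45 lower genes. Over all tested genes it was in 87 of 5840 promoters (1.49%), and over all RefSeq promoters in 532 of 27025 (1.97%). The 98 genes are part of the 130 higher genes, of which 61 reached 10 CPM in Zfp42-low cells alone and were counted because they differ. Gadd45g and Pim2, with 3.97 and 4.52 CPM in the Zfp42-high cells, are among these 61. A match of letters is a description and not a binding site. The promoters of Lefty1 and Pou3f1 were not searched.

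The library labelled positive for the reporter was not used to choose the cells, so the same rule was run there. Cells with 0.01% or more of their UMIs from 9 2C-like markers were left out first, because Zfp42 is known to be low in that state, which left 2117 cells, with 211 Zfp42-low cells at a median of 125 CPM and 1059 Zfp42-high cells at 1661 CPM. The gap in Zfp42 was thus wider than in the negative library, and more genes passed the ratio: of 8327 tested genes 1127 (13.5%) were higher and 353 (4.24%) lower. Of the 130 genes higher in the negative library 117 were tested in the positive one, and 87 (66.9%) were higher there too. These 87 genes were 7.72% of its 1127 higher genes. Of the 67 lower genes 65 were tested and 58 (86.6%) were lower there too, 16.4% of its 353 lower genes. Nanog had 184 against 546 CPM in the positive library, Klf4 123 against 496 CPM, and Esrrb 17.4 against 66.8 CPM. The naive median was -1.40 there, with 19 lower and 2 higher. The primed median was 0.34, below the 0.44 of the negative library, with 5 higher and 3 lower, the lower genes being Zic2 (-1.06), Etv4 (-1.13) and Tcf15 (-0.64).

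Some groups differed between the libraries in their values, which was not tested. In the positive library Pou5f1 (-0.63), Sox2 (-1.57) and Utf1 (-1.43) were lower as well, and the core median was -0.63. Of the core genes 6 were lower there and 2 higher, Dppa2 (1.03) and Lin28a (0.99), against 4.24% lower and 13.5% higher of all genes tested in that library. Lefty1 (3.17), Id2 (2.75), Id1 (3.05), Gadd45g (3.14) and Dnmt3b (1.92) were higher there, as were Pou3f1 (1.62) and Pim2 (0.70, against 2.10 in the negative library). Lef1 had 5.36 against 2.42 CPM, too low to be counted, and Otx2 was at -0.44. Krt8 had 248 against 6.02 CPM and Krt18 331 against 6.85 CPM, and the trophoblast median was 2.25. The primitive endoderm list had a median of 0.83 there, with 7 genes higher and 0 lower, against the same 13.5% and 4.24%. It holds Gata6, a gene by which cells were left out. The 2C list median was 1.35, so cells with some 2C transcripts remained among the low cells there, and the part of any of these groups of cells in the other values was not tested.

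**Figure D5:**
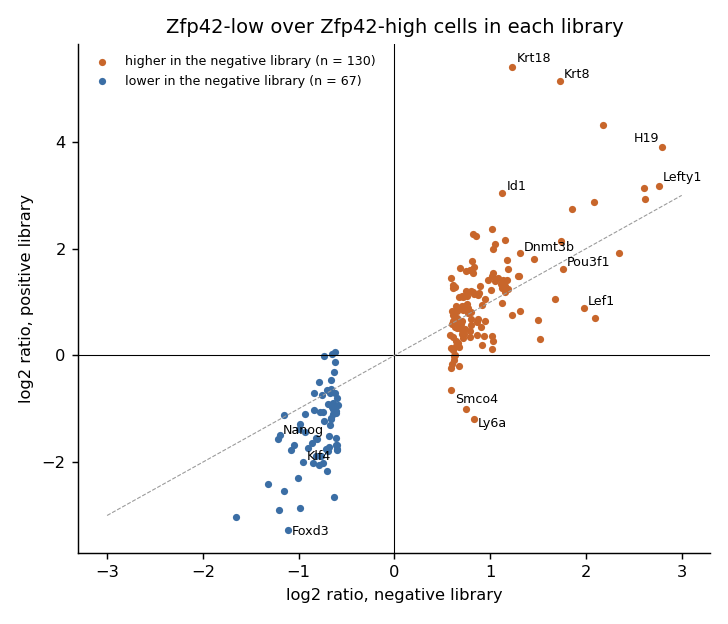
Log2 ratio of CPM + 1, Zfp42-low cells over Zfp42-high cells, in the negative library (horizontal axis) and in the positive library (vertical axis), for the 130 genes higher (orange) and 67 lower (blue) in the negative library. Of the higher genes 122 and of the lower genes 65 have the same sign in both libraries, and the dashed line marks equal ratios.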

How the data were processed

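The deposited matrices hold whole-number counts per gene and cell, taken here as UMIs; the labels' extraction text describes a bulk kit and does not state how cells were tagged. FastQC 0.11.2, Trim Galore 0.6.4, STAR 2.7.6a and build mm10 are named per the submitters' processing notes, without roles; cell filtering and doublet removal by the authors are not given in the sources used here, and no doublet caller was run. Groups were taken from the labels, and 1 sample a group allowed no test. The libraries share 3 of their barcodes, 0 of them among the members.

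UMIs were summed per group, divided by the group's total (13129379 and 75034914 UMIs) and compared as the log2 ratio of CPM + 1, with exact Poisson and Clopper-Pearson intervals. List medians have order-statistic intervals over genes. Phases were scored with scanpy 1.11.5 on cells thinned to 10000 UMIs, and TMM came from edgeR 4.0.16. Counts do not use strand as far as stated, so overlapping genes and near-identical copies such as Rhox6 and Rhox9 are uncertain. Named genes are all measured members of the naive, core and primed lists, the 15 leading genes in each direction that keep their direction under all scalings, and up to 4 of each of the other lists; further list members are named to fill out a list, and 1 gene taken out of the core list is not reported here. The members and the 28 lists were chosen with earlier results of these data known. The 2C limit for the positive library was set to 9 markers after the data were seen, since the whole 2C list left 14 cells. The scripts were tested on simulated data with known answers, in which a separate low-Zfp42 state made up 99.4% of the cells picked. The real cells ran through a continuous range, so that test checks the code and not these results.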

Additional observations from a re-analysis of the deposited data

Results flagged for a closer look

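Of the genes counted as higher in Zfp42-low cells of the negative library 2 were counted as lower in those of the positive library. Smco4 had a log2 ratio of 0.59 in the negative library (27.6 against 18.0 CPM) and -0.65 in the positive library (7.31 against 12.0 CPM). Ly6a, a surface protein used as a stem cell marker in other tissues, had 0.83 (13.5 against 7.14 CPM) and -1.20 (5.52 against 14 CPM). In the negative library 85.3% of the members' Ly6a UMIs lay in 10 cells, and without the 3 keratin-rich cells its log2 ratio was 0.50, while the same share was 16.3% for Smco4. The difference between the libraries was not tested, since each has 1 sample.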

How the results depend on the processing

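No paired analysis was possible because no group has more than 1 sample, and for that reason no replicate was left out. The alternatives without the lowest 1% of cells, without the 3 keratin-rich cells, in the positive library and for single cells were added once the data had been seen. Naive medians stayed below 0 and primed medians above 0 under all 25 alternatives. Higher and lower genes, 130 and 67 as reported, numbered 388 and 147 with at least 1 CPM, 465 and 161 without a filter, 46 and 11 at a ratio of at least 2, 446 and 291 at the lower ratio tried, 263 and 181 for the bottom 5%, 55 and 23 for the bottom 20%, 244 and 139 in G2/M phase cells and 602 and 320 without the endoderm limit, which brings in the endoderm-gene cells. Against the top 10% of cells 111 were lower. The naive median was -0.97 for the bottom 5% and -1.05 without the endoderm limit, and the primed median 0.21 for the bottom 20%. Tbx3 reversed to 0.30 without the endoderm limit, and Krt8 to -0.14 without the 3 keratin-rich cells. The share of members with few naive UMIs was 40.9% over all 24 naive genes and 59.9% without thinning. Of 1449 values for 69 named genes, from the 21 alternatives that can move a gene, 1062 lay inside the counting interval of the reported one, 385 lay outside it and 2, of genes past the ratio, reversed. Genes inside the ratio changed sign in 41 of the values. Without a 2C limit in the positive library 66 and 56 genes, instead of 87 and 58, were called the same way. A single library cannot show how the values vary between cultures.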

Other observations

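The share of higher genes varied between chromosomes, a pattern seen after the data were examined and not tested. By GENCODE vM21 positions (GRCm38), found for 7337 of the 7344 tested genes, 10 of 238 X-linked genes (4.2%) and 120 of 7081 autosomal genes (1.69%) were higher, and 3 of 238 (1.26%) and 64 of 7081 (0.904%) were lower. Single autosomes ran from 0.80% higher for chromosome 19 to 2.67% for chromosome 10 and 3.36% for chromosome 12. The higher X-linked genes were Rhox6, Rhox9, Pim2, 1700013H16Rik, Klhl13, Fthl17c, Efhc2, Rlim, Bcor and Tfe3. Of these 10, 8 were also higher in the positive library, against 66.9% of all 130 higher genes. In that library 13.5% of all tested genes were higher. Rhox6, Rhox9, Pim2, 1700013H16Rik, Efhc2 and Bcor reached 10 CPM in Zfp42-low cells alone, so the filter let them in because they differ. The same held for 61 of all 130 higher genes. Without the 3 keratin-rich cells Rhox6, Rhox9 and Bcor fell under 10 CPM and were no longer counted. Rlim, an activator of Xist, had 12.6% of its UMIs in 10 cells and Klhl13 41.0%, while Rhox6, Rhox9 and 1700013H16Rik had over 70%. The X chromosome had a median log2 ratio of 0.009 over its 238 genes and took a median of 2.98% of the UMIs of a Zfp42-low cell (10th to 90th percentile 2.68 to 3.34) and 2.89% of a Zfp42-high cell (2.65 to 3.16). Xist had at least 1 UMI in 9.19% of Zfp42-low cells (6.41 to 12.7) and 12.5% of the Zfp42-high cells (11 to 14.1). Its summed level was 7.01 against 3.36 CPM, and 2.76 CPM in members without the 3 keratin-rich cells. Chromosome 1 had a median log2 ratio of -0.09 over 435 genes, while the other autosomes lay between -0.01 and 0.06.

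Some genes too low to be counted, chosen after their values were seen, had unequal levels. Foxq1 had 7.39 against 1.33 CPM, the tight junction genes Cldn7 and Cldn6 9.14 against 2.93 CPM and 7.31 against 2.57 CPM, and the receptor Fgfr2 5.64 against 1.75 CPM. Of the epithelial and mesenchymal list, 6 genes were large enough to be counted and 1 was higher, against 1.77% of all tested genes. That gene was the adhesion molecule Epcam, which had 172 CPM (165 to 180) against 88.9 CPM (86.8 to 91.1), and its partner in epithelia Cdh1 had 47.7 against 43.0 CPM. Of the members' Foxq1 UMIs 82.5% lay in 10 cells, and of their Epcam UMIs 12.8%.

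The lowest deciles by single pluripotency factors were partly the same cells. Each decile holds 10% of all 3599 cells. Of the 359 Zfp42-low cells 138 (38.4%) were also in the lowest decile by Nanog, 126 (35.1%) by Klf4, 89 (24.8%) by Sox2, 70 (19.5%) by Esrrb and 70 (19.5%) by Pou5f1. The highest decile by the hypoxia list held 60 of them (16.7%) and that by the primed list 78 (21.7%). Sparse counts limit each of these overlaps: after thinning to 10000 UMIs Zfp42 itself picked 253 of the 359 again (70.5%).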
